A study of Mus musculus with 9 samples.

Results

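Ddc encodes aromatic L-amino acid decarboxylase, the enzyme that makes dopamine from L-DOPA and serotonin from 5-hydroxytryptophan. The gene lies on mouse chromosome 11 between Fignl1 and Grb10, with Cobl further along in the direction of increasing coordinates. These 4 genes, Ddc and its neighbours Fignl1, Grb10 and Cobl, were taken by name from a table of 35288 listed genes. Ddc was selected on its log2 fold change in Smarcb1-RE against control, which is among the largest, so its own rise is given below as a description and is not tested, and the question addressed is whether the genes around it moved with it. All 4 members were in the table, and 3 of them (Ddc, Fignl1 and Grb10) passed the filter on low counts that left 13697 genes for testing, while Cobl did not.

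Bulk RNA-seq had been carried out on T15, a cell line derived from a peripheral T-cell lymphoma (PTCL) of a mouse in which Cd4-cre deletes a floxed Smarcb1 gene, so that every group shares this deletion. The 3 groups of 3 libraries each were compared. Control cells were set against cells given SAHA (suberoylanilide hydroxamic acid, vorinostat, an inhibitor of histone deacetylases) at 1 µM over 72 hours, and against Smarcb1-RE cells, in which a lentiviral pInducer20-Smarcb1 construct was switched on with Dox (doxycycline, 0.5 µg/µl) for 72 hours. Smarcb1-RE cells had been transduced and selected with G418, and which of the stable clones gave the libraries is not given in the sources used here. Control cells are described as untreated T15 cells, and whether they carried a control construct or received vehicle is not given in the sources used here, so Smarcb1, the construct, selection and Dox cannot be told apart.

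SMARCB1 is a core subunit of the SWI/SNF (BAF) chromatin remodelling complexes, which move nucleosomes at promoters and enhancers. Ddc is best known from dopaminergic and serotonergic neurons, the adrenal medulla, kidney, liver and gut, and uses pyridoxal phosphate as its cofactor. Fignl1 is an AAA ATPase that acts in homologous recombination. Grb10 is an adaptor protein that restrains signalling from the insulin and IGF1 receptors and is an imprinted gene, expressed mostly from the maternal allele in most tissues and from the paternal allele in neurons. Cobl (cordon-bleu) nucleates actin filaments through its WH2 domains.

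The 4 members are all transcribed from the minus strand. In GRCm38 with GENCODE M21 annotation, Fignl1 (ENSMUSG00000035455) spans chromosome 11 from 11787431 to 11808962, Ddc (ENSMUSG00000020182) from 11814101 to 11898144, Grb10 (ENSMUSG00000020176) from 11930508 to 12038683 and Cobl (ENSMUSG00000020173) from 12236608 to 12464960. The start of Fignl1 lies 89.18 kb from the start of Ddc, that of Grb10 140.5 kb and that of Cobl 566.8 kb. An antisense gene, 1700042O10Rik, lies within Ddc and was not analysed here, and whether reads were assigned by strand is not given in the sources used here.

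RefSeq (GRCm38.p6) gives starts for all 4 members, 7 in total. The 250 bases before each member's upstream start are shown because the 4 genes are neighbours with unlike promoters, and Ddc is shown for both of its starts, which lie 7736 bp apart. Each sequence is written 5′ to 3′ on the minus strand, and capitals mark CG dinucleotides. The windows are chr11:11898145-11898394 and chr11:11890409-11890658 for Ddc, chr11:11808963-11809212 for Fignl1, chr11:12037421-12037670 for Grb10 and chr11:12464961-12465210 for Cobl.
Ddc upstream start: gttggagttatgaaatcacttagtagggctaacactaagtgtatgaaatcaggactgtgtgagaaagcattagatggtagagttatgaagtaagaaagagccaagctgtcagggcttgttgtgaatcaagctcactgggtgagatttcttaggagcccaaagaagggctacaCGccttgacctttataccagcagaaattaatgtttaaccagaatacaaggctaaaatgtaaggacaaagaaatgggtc
Ddc downstream start: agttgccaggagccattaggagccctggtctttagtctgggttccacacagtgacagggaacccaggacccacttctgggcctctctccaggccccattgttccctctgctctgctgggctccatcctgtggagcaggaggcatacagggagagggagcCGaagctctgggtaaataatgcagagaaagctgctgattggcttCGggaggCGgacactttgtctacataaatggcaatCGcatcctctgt
Fignl1: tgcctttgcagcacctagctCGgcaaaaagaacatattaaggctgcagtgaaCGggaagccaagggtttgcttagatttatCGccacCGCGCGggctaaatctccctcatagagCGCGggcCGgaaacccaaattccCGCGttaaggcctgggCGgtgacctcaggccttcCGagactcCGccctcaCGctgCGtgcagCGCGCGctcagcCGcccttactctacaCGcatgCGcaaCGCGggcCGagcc
Grb10: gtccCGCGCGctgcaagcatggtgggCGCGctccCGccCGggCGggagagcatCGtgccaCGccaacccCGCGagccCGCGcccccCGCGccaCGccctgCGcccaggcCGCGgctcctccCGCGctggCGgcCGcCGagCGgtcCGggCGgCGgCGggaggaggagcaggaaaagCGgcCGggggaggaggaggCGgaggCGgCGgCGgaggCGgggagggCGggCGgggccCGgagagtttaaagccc
Cobl: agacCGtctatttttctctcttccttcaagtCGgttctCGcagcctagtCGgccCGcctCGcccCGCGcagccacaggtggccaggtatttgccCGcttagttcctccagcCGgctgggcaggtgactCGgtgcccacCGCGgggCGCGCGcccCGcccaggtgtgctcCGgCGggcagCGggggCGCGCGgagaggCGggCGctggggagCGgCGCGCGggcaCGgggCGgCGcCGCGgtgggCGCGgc

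The upstream Ddc window held 1 CG dinucleotide, and the median of 32851 RefSeq windows of this length was 6. Only 18.8% of windows held as few. The downstream Ddc window held 4. Fignl1 held 25, Grb10 40 and Cobl 36, and windows with at least as many made up 10.7%, 1.3% and 2.6% of all windows. The upstream Ddc window was the CG-poorest of the 5 printed here, and the windows of its 3 neighbours were all CG-rich. The further starts of Grb10 and Cobl, not printed, held 8 and 0 CG dinucleotides. The windows were searched on both strands for TGANTCA, a loose form of the AP-1 motif that allows any middle base. The upstream Ddc window held 1 match, as did 6.7% of all windows at least once. That match reads TGAATCA, without the middle C or G of the usual AP-1 site. The same window held 1 match to the TATA-like TATAAA, found on either strand in 12.4% of windows. That match is on the strand opposite to the one shown, so it is not oriented as a TATA box of Ddc. No member's window held the RUNX motif TGTGGT, found in 14.0% of windows, and the windows of the other members and of the downstream Ddc start held none of the 3 motifs.

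The targeted gene was examined first. Smarcb1 had estimated counts of 2, 5 and 8 in control, 7, 13 and 3 with SAHA and 151, 147 and 142 in Smarcb1-RE libraries. The Smarcb1-RE libraries were all far above the others (log2 fold change against control 4.89, SE 0.36, edgeR quasi-likelihood test, adjusted p = 6.19e-08). Total counts per library ran from 20900424 to 24941408, and 3 counts, the limit below which a gene is treated as not detected, corresponded to between 0.1234 and 0.1328 CPM (counts scaled to library depth, normalized by TMM). Control replicate 1 stood apart from the other controls, with a chi-square per gene of 12.55 and 14.07 against between 2.067 and 4.552 for all other replicate pairs, and leaving it out changed no call of the members. T cell markers were high (Cd3e, Cd8a and Lck among 13 of 17 tested), whereas Cd4 had 0 counts, Thy1 at most 6, Cd2 at most 3 and Cd5 at most 1.

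Ddc was barely expressed in control cells and was among the more abundant transcripts in Smarcb1-RE cells. Its estimated counts were 18, 21 and 14 in control, 26, 19 and 20 with SAHA and 2574, 2672 and 2669 in Smarcb1-RE libraries. All 3 Smarcb1-RE libraries were far above every other library, while the control and SAHA libraries overlapped. The mean level of Ddc in control was 0.743 CPM with an SD of 0.157 over 3 libraries. With SAHA it was 0.942 CPM (SD 0.160), and Smarcb1-RE libraries averaged 114.4 CPM (SD 4.27). The coefficient of variation over the Smarcb1-RE libraries was 3.73%.

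Against control, the log2 fold change of Ddc in Smarcb1-RE was 7.26, a 153.2-fold higher level, and against SAHA it was 6.91. By level, Ddc moved from rank 11920 of 35288 listed genes in control to rank 1760 in Smarcb1-RE. By log2 fold change it ranked 12 of 13697 tested genes, and 2 among the better expressed genes, those averaging a log2 CPM of 1 or more. The gene just above it in that order was Fam196b, at 8.10, and the one just below was Foxb1, at 6.97. These values chose the gene and are given without a test.

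SAHA, in contrast, left Ddc within the range the test could not resolve. The log2 fold change was 0.34 (SE 0.22, 95% interval −0.13 to 0.82), a 1.27-fold difference with an interval from 0.916 to 1.76, and the adjusted p was 0.241 in edgeR's quasi-likelihood test. A 2-sided exact permutation test over the 6 libraries gave p = 0.3, where 0.1 is the smallest value possible with 3 against 3. The interval leaves room for no more than a 1.76-fold rise.

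**Figure D1:**
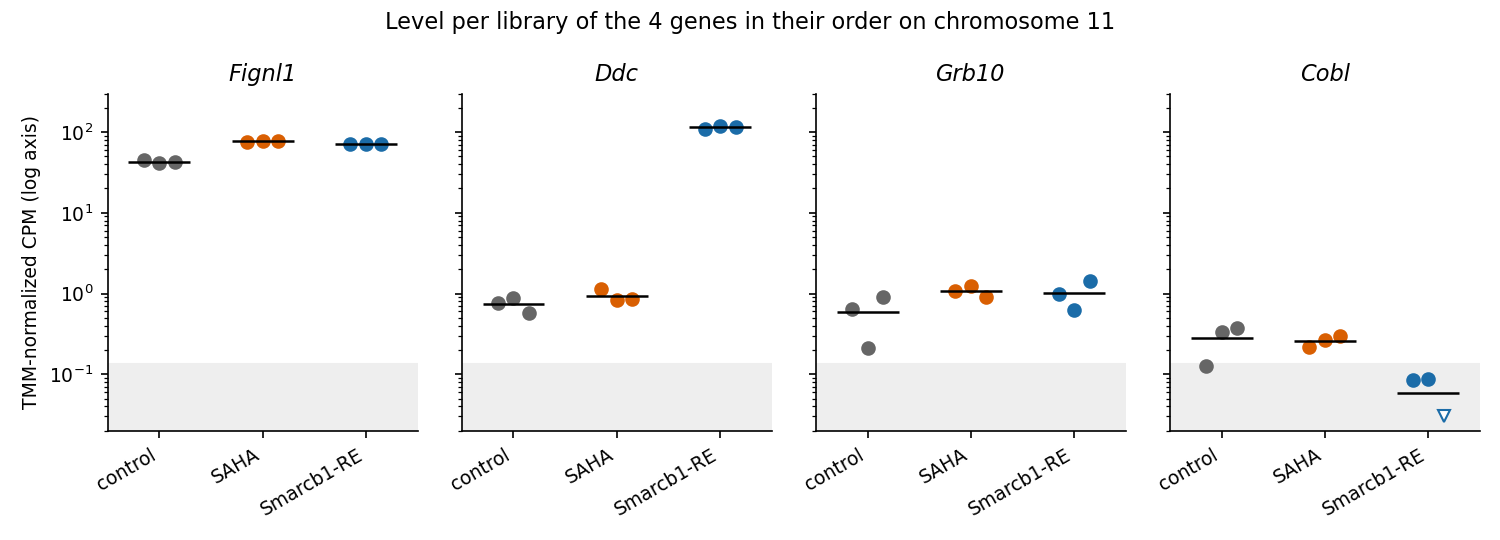
TMM-normalized CPM (log axis) of Fignl1, Ddc, Grb10 and Cobl in each of 9 libraries, with the group mean as a line, grey shading below the level of 3 counts and an open triangle for the 1 library with 0 counts. Ddc is at 114.4 CPM on average in Smarcb1-RE and under 1.2 CPM in every other library, whereas Fignl1 is above its controls in both SAHA and Smarcb1-RE.

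Fignl1, the neighbour on the side of lower coordinates, was raised in both SAHA and Smarcb1-RE. Its estimated counts were 1074, 970 and 1032 in control, 1760, 1752 and 1793 with SAHA and 1671, 1588 and 1648 in Smarcb1-RE libraries. The 3 groups did not overlap, with control lowest and SAHA highest. Levels were 43.0 ± 2.39, 77.0 ± 0.639 and 70.9 ± 0.523 CPM (SD, n = 3 each).

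Fignl1 rose 1.79-fold with SAHA (log2 fold change 0.84, SE 0.04, edgeR adjusted p = 1.09e-08) and 1.65-fold with Smarcb1 (log2 fold change 0.72, SE 0.04, edgeR adjusted p = 1.25e-08). In these 2 comparisons, which share their controls, 32.6% and 39.2% of all tested genes were raised. The direct difference of Smarcb1-RE from SAHA was −0.12 on the log2 scale (SE 0.04, 95% interval −0.21 to −0.02, edgeR adjusted p = 0.0249), in a comparison in which 36.8% of tested genes were lower and 37.7% higher in Smarcb1-RE. That small difference turned to 0.04 when libraries were scaled by their totals alone and to 0.07 relative to the median of chromosome 11, so its direction rests on the scaling. It lost its call (adjusted p from 0.0558 to 0.0726) without SAHA replicate 3, Smarcb1-RE replicate 2 or Smarcb1-RE replicate 3.

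Grb10, the neighbour on the other side of Ddc, was expressed at a low level in every group. Its estimated counts were 15, 5 and 22 in control, 25, 28 and 21 with SAHA and 23, 14 and 33 in Smarcb1-RE libraries. The groups overlapped in every comparison, and control replicate 2, with 5 counts, was the lowest library. Levels were 0.585 ± 0.350, 1.08 ± 0.167 and 1.01 ± 0.402 CPM (SD, n = 3 each).

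For Grb10 the log2 fold change was 0.87 with SAHA (SE 0.43, 95% interval −0.06 to 1.80, edgeR adjusted p = 0.0913) and 0.78 with Smarcb1 (SE 0.43, 95% interval −0.16 to 1.71, edgeR adjusted p = 0.116). The Smarcb1-RE and SAHA libraries differed by −0.09 (SE 0.40, edgeR adjusted p = 0.849). None of the 3 passed the threshold of 0.05. Both comparisons with control passed it when control replicate 3 was left out (1.33 and 1.23, edgeR adjusted p = 0.0285 and 0.035), and the values fell to 0.47 and 0.37 without control replicate 2. Even the upper end of the Smarcb1 interval, 1.71, lies far below the 7.26 of Ddc.

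Cobl, the furthest member, had the fewest reads and the lowest values in Smarcb1-RE. Its estimated counts were 3, 8 and 9 in control, 5, 6 and 7 with SAHA and 2, 2 and 0 in Smarcb1-RE libraries. All Smarcb1-RE libraries were below every control and SAHA library, although at these depths they lie under the limit of 3 counts. Summed over libraries, 4 counts in Smarcb1-RE stood against 20 in control, a ratio of 0.207 after scaling (95% exact interval 0.0513 to 0.617, counting error only), and 18 in SAHA gave a ratio to control of 0.933 (0.466 to 1.86). Against SAHA, the ratio in Smarcb1-RE was 0.221 (0.0545 to 0.672).

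Cobl did not pass the count filter and so has no test in the fit used for the other genes. When all 22566 genes with any count were fitted, its log2 fold change in Smarcb1-RE was −2.20 (SE 0.77, edgeR adjusted p = 0.0201), and with SAHA it was −0.11 (SE 0.61, edgeR adjusted p = 0.957). A 2-sided exact permutation test of Cobl in Smarcb1-RE against control gave p = 0.1, the smallest value possible with 3 against 3. Of all genes in the filtered fit, 38.6% were lowered with Smarcb1.

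Set side by side per length of exon, the 4 genes changed their order of level with Smarcb1 only in that Ddc moved to the top. In control, Fignl1 was at 8.89 ± 0.494 CPM per kb (SD, n = 3), Ddc at 0.167 ± 0.0352, Grb10 at 0.0643 ± 0.0385 and Cobl at 0.0342 ± 0.0162. The control values of Grb10 and Cobl, which are next to each other in this order, lay within their spread. In Smarcb1-RE, Ddc was at 25.6 ± 0.958 CPM per kb, Fignl1 at 14.65 ± 0.108, Grb10 at 0.111 ± 0.0443 and Cobl at 0.00712 ± 0.00617. In SAHA the order was that of control, with Fignl1 at 15.9, Ddc at 0.211, Grb10 at 0.118 and Cobl at 0.0321 CPM per kb.

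A wider view was taken of all genes that start within 1 Mb of the Ddc start. Of 23 annotated genes, 12 were listed, and besides Ddc 6 were tested. With Smarcb1, 4 of the 6 rose (66.67%, against 39.2% of all tested genes), none fell, and 3 rose at least 2-fold, as did 16.9% of all tested genes. With SAHA, 3 rose (32.6% of all tested genes did) and 1 fell (34.3% of all did). The median log2 fold change of the 6 was 1.26 with Smarcb1 and 0.85 with SAHA, where the medians of all tested genes were 0.01 and 0.00. On chromosome 11 as a whole, 349 of 1099 tested genes (31.76%) rose with Smarcb1 and 505 fell, with a median of −0.13. These 6 genes are too few to set the window apart from the background, and Fignl1 and Grb10 are among them. The count filter also bears on which genes were counted. 4930512M02Rik, 1 of the 4 raised with Smarcb1, had 9 counts or fewer in every control library. Cobl, left out by the filter, fell with Smarcb1 when all genes with any count were fitted (log2 fold change −2.2, edgeR adjusted p = 0.0201). The share raised with Smarcb1 and the lack of a fall may therefore come partly from the filter.

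The genes of this window that rose most besides Ddc lay not beside it but beyond Ikzf1. Ikzf1 encodes Ikaros, a lymphoid transcription factor, and its start lies 213.1 kb from that of Ddc. Its estimated counts were between 9685 and 11493 in control, 7013 and 7523 with SAHA and 10968 and 11284 in Smarcb1-RE libraries. Ikzf1 fell with SAHA (log2 fold change −0.52, SE 0.05, edgeR adjusted p = 2.76e-06), and its difference in Smarcb1-RE from control was 0.09 (SE 0.05, edgeR adjusted p = 0.122). That lack of a call rests on the processing. Scaled by library totals, 5 of the 6 tested genes near Ddc rose with Smarcb1, all but Grb10. With at least 10 counts required in every library, 4 rose, Ikzf1 among them. Ikzf1 had the highest counts of the window in every group.

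Spata48 and Zpbp, genes known from spermatogenesis, start 436 and 435.7 kb from Ddc and overlap head to head at their starts. Estimated counts of Spata48 were 91, 94 and 99 in control, 273, 263 and 324 with SAHA and 429, 428 and 424 in Smarcb1-RE libraries. Those of Zpbp, which encodes a zona pellucida binding protein, were 129, 158 and 138 in control, 321, 308 and 323 with SAHA and 499, 465 and 421 in Smarcb1-RE libraries. For both genes the 3 groups were separate, with control lowest and Smarcb1-RE highest.

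Spata48 rose by a log2 fold change of 2.22 with Smarcb1 (SE 0.09, edgeR adjusted p = 2.71e-10) and of 1.65 with SAHA (SE 0.09, edgeR adjusted p = 1.54e-08). Zpbp rose by 1.75 (SE 0.09, edgeR adjusted p = 2.18e-09) and 1.22 (SE 0.09, edgeR adjusted p = 1.91e-07). The direct difference of Smarcb1-RE from SAHA was 0.57 (SE 0.08, edgeR adjusted p = 2.27e-05) for Spata48 and 0.53 (SE 0.08, edgeR adjusted p = 6.04e-05) for Zpbp. Because the pair overlaps, the share of reads belonging to each is uncertain.

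Between this pair and Ikzf1 lies 4930512M02Rik, 270.3 kb from the Ddc start. Its estimated counts were 4, 8 and 9 in control, 14, 12 and 10 with SAHA and 36, 33 and 38 in Smarcb1-RE libraries. It was the tested neighbour with the largest change with Smarcb1, a log2 fold change of 2.38 (SE 0.30, edgeR adjusted p = 1.08e-05), and with SAHA it was 0.82 (SE 0.35, edgeR adjusted p = 0.0517). Vwc2, Gm12598, Gm12599 and Gm12001 were listed with at most 10 counts in any library and were not tested.

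**Figure D2:**
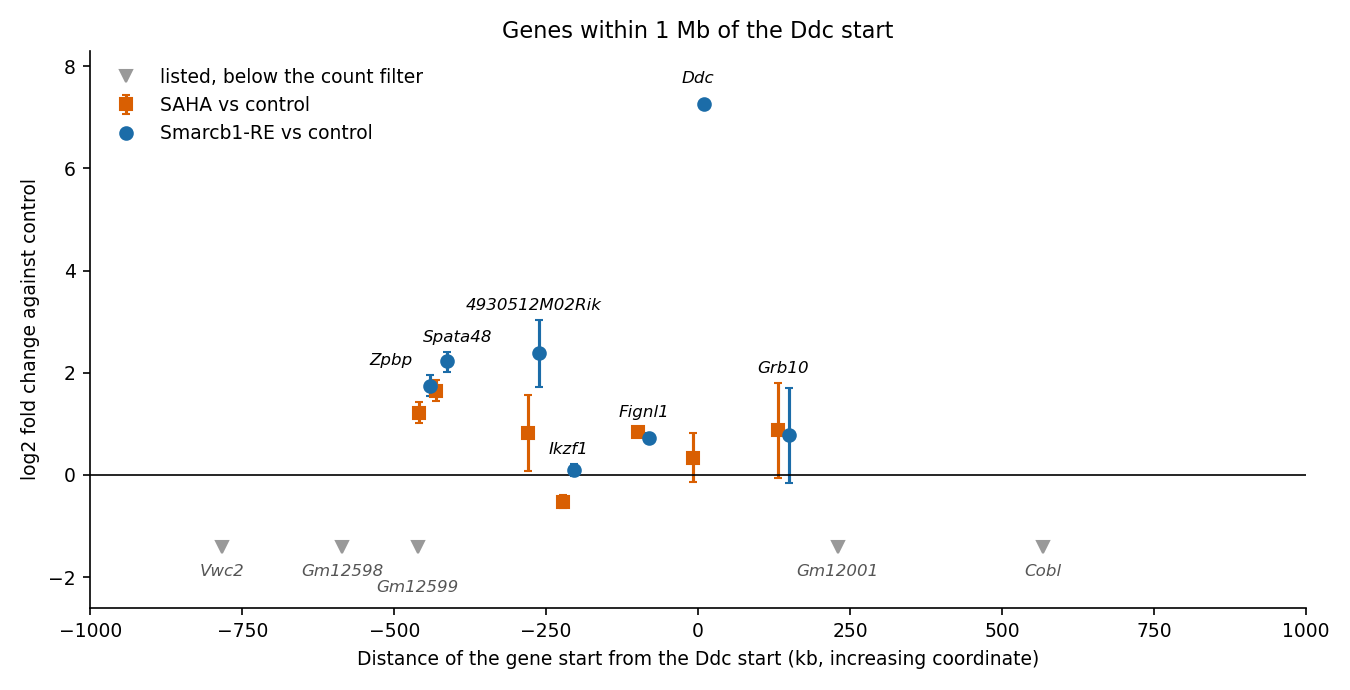
log2 fold change against control of the tested genes within 1 Mb of the Ddc start, by distance of their starts in kb, for SAHA (squares) and Smarcb1-RE (circles), with 95% intervals and Spata48 and Zpbp drawn slightly apart. Triangles mark listed genes below the count filter, and Ddc, which chose the region and is drawn without an interval in Smarcb1-RE, stands at 7.26 while its nearest tested neighbours are at 0.72 and 0.78.

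To set Ddc beside other strongly raised genes, the nearest tested gene on each side was taken for the 20 genes with the largest log2 fold changes with Smarcb1 among well expressed genes. These 20 genes had 37 neighbours, of which 27 were raised (72.97%, against 39.2% of all tested genes), 5 were lowered and 5 were not called. The median log2 fold change of the neighbours was 1.73, and 19 of them (51.35%) stood at 1 or more. Of all tested genes, 16.9% were raised at least 2-fold. Neighbours that are high in Smarcb1-RE alone can pass the count filter, so these shares may come partly from the filter. The 37 hold 36 distinct genes, 2 of them (Fkbp14 and Mturn) were themselves among the 20 and so had to be raised, and Smarcb1, 1 of the 20, was introduced on a construct, so its rise does not describe its own locus. With these and the repeat left out, an alternative chosen after seeing the data, 22 of 32 neighbours were raised (68.75%) and 5 were lowered. Of these 32, 15 stood at a log2 fold change of 1 or more. Many of these neighbours are near-identical copies, pseudogenes or genes on unplaced scaffolds, as around A530032D15Rik, Gm2619, Gm16026 and AC133103.1, and reads may be split between the copies. With at least 10 counts required in every library, only 4 of the 20 genes were left, with 8 neighbours, of which 5 were raised.

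Ddc was 1 of 6 among the 20 genes with no neighbour raised 2-fold. Fam196b lay between Foxi1, at −2.01, and Dock2, at 0.15. Foxb1, a forkhead transcription factor gene, lay between Anxa2, at −1.92, and Bnip2, at −0.29. The other 3 were Nr2f1, Arhgap32 and Ttll7.

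Several other genes had a neighbour raised more than 2-fold. Tmem45a, at 6.29, lay beside Adgrg7, an adhesion G protein-coupled receptor gene, at 4.88. Fkbp14 and Mturn, 84.32 kb apart, rose by 5.26 and 5.21. Sh2d1b1, which encodes an adaptor of SLAM family receptors, lay beside its paralogue Sh2d1b2, at 4.73. Gm10521 lay between Cd84 and Slamf6, both SLAM family receptors, at 2.75 and 3.02. Ccdc7a, the paralogue beside Ccdc7b (5.09), stood at 6.87.

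**Figure D3:**
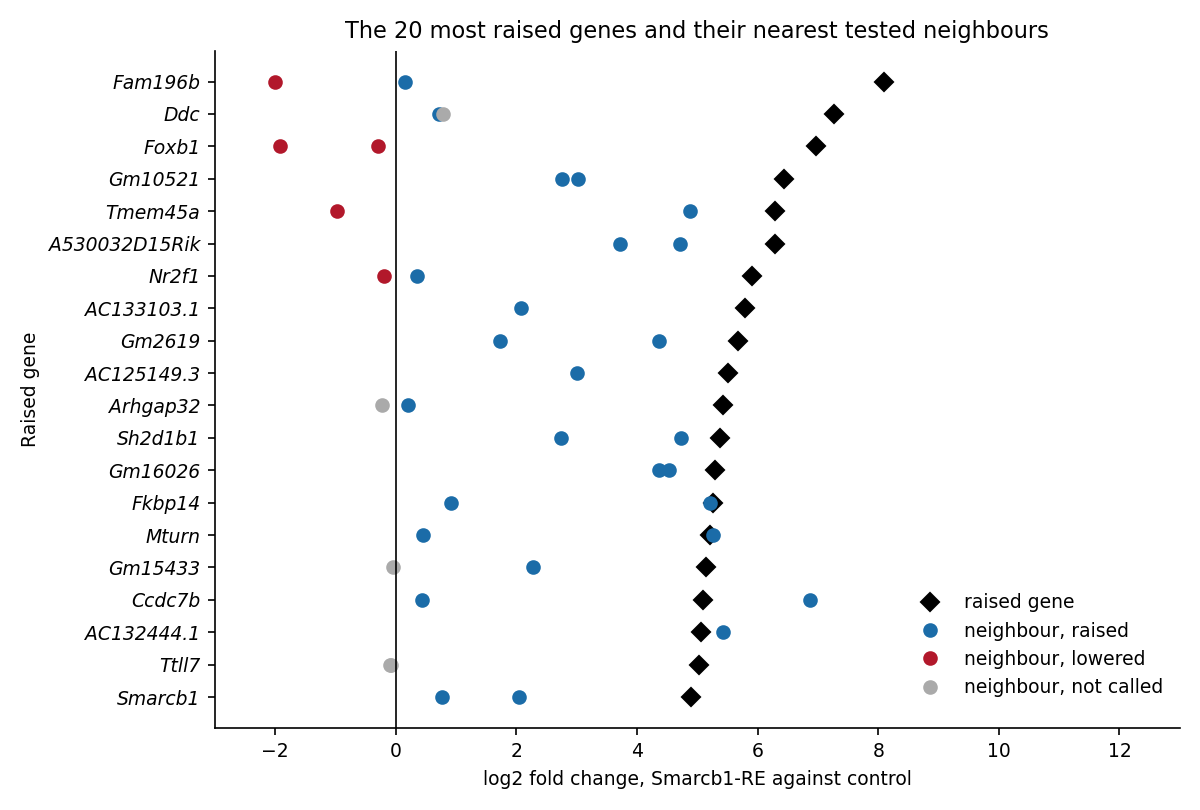
log2 fold change in Smarcb1-RE against control of the 20 most raised genes (diamonds) and of the nearest tested gene on each side (circles, coloured by call). Ddc is 1 of 6 genes whose neighbours all lie below 1, while for Ccdc7b (neighbour at 6.87), Mturn and AC132444.1 a neighbour lies above the gene itself.

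The genes nearest to Ddc in their pattern over the 9 libraries, by Euclidean distance of log2 CPM from the control mean, were Fam196b (distance 1.794), Foxb1 (2.205), Tmem45a (2.272), A530032D15Rik (2.959) and AC133103.1 (3.056). Fam196b lies on the same chromosome, at 34314822 to 34422640. It had 1, 0 and 1 counts in control, 1, 0 and 0 with SAHA and 215, 194 and 225 in Smarcb1-RE libraries. Foxb1 had 8, 9 and 13 counts in control, 3, 8 and 6 with SAHA and 1292, 1160 and 1246 in Smarcb1-RE libraries. Tmem45a, with 29, 32 and 37 counts in control, differed from Ddc in that SAHA raised it (89, 68 and 68 counts, log2 fold change 1.25, SE 0.15, edgeR adjusted p = 8.3e-06). None of the neighbours of Ddc was among these genes, but the measure could hardly have placed them there. Only genes averaging a log2 CPM of 1 or more were ranked, and the distance follows the size of the rise that chose Ddc. Their absence is therefore no result about the neighbourhood.

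The tyrosine and tryptophan hydroxylases that make the substrates of Ddc had 7 counts or fewer in every library. Of 29 further genes of monoamine synthesis, storage, transport and breakdown, 11 were tested and 18 fell below the filter. Th, the tyrosine hydroxylase, had at most 1 count in any library, Tph1, a tryptophan hydroxylase, at most 7, and Tph2 at most 1. Slc18a2, the vesicular monoamine transporter, had 0 counts and Dbh, which makes noradrenaline from dopamine, at most 1. At this depth none of these was detectable above a few counts in Smarcb1-RE.

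With Smarcb1, 3 of the 11 tested genes rose and 6 fell, with a median log2 fold change of −0.29, and with SAHA 4 rose and 4 fell, with a median of −0.06. The shares raised, 27.27% and 36.36%, stand beside 39.2% and 32.6% of all tested genes. The shares lowered, 54.55% and 36.36%, stand beside 38.6% and 34.3%. The genes that rose with Smarcb1 all belong to the supply of tetrahydrobiopterin, the cofactor of the hydroxylases. Gch1, its first enzyme, had 116, 129 and 130 counts in control and 280, 256 and 261 in Smarcb1-RE libraries (log2 fold change 1.13, SE 0.10, edgeR adjusted p = 2.92e-07). Pts, the next enzyme, rose by 0.61 (SE 0.06, edgeR adjusted p = 9.46e-07). Gchfr, the feedback regulator of Gch1, rose by 2.92 from 2, 3 and 3 counts (SE 0.45, edgeR adjusted p = 6.26e-05).

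Other genes of the same route fell. Spr, which completes tetrahydrobiopterin, fell by 1.10 with Smarcb1 and by 1.62 with SAHA, and Qdpr, which recycles it, fell by 1.09 and 0.53 (log2 scale). Pcbd2, also in recycling, fell by 0.29 with Smarcb1. Pdxk, the pyridoxal kinase that supplies the cofactor of Ddc, fell by 0.56 and 0.74. The genes of cofactor supply thus moved in both directions.

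The breakdown enzymes separated the SAHA and Smarcb1 responses. Maoa, monoamine oxidase A, had 491, 469 and 471 counts in control, 1505, 1564 and 1584 with SAHA and 449, 433 and 462 in Smarcb1-RE libraries. It rose with SAHA by 1.75 (SE 0.05, edgeR adjusted p = 1.2e-10), and in Smarcb1-RE it was at −0.04 (edgeR adjusted p = 0.461). Aldh2, an aldehyde dehydrogenase, rose by 1.49 with SAHA and fell by 0.63 with Smarcb1. Ddc rose in Smarcb1-RE and Maoa in SAHA, and the direct differences of Maoa and Aldh2 between Smarcb1-RE and SAHA were −1.80 and −2.12 (edgeR adjusted p = 1.05e-11 and 3.31e-10).

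**Figure D4:**
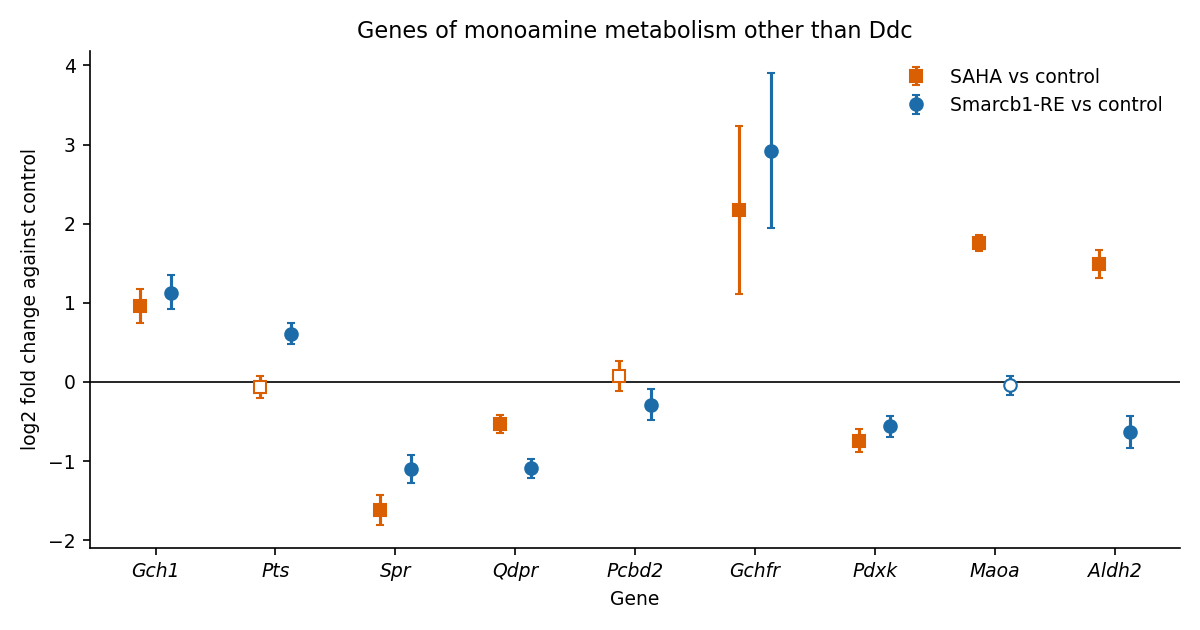
log2 fold change against control with 95% intervals of 9 tested monoamine genes other than Ddc, for SAHA (squares) and Smarcb1-RE (circles), with open symbols where the adjusted p is 0.05 or more. Gch1 and Gchfr are above 0 in both comparisons, Spr, Qdpr and Pdxk are below 0 in both, and Maoa and Aldh2 are raised with SAHA but not with Smarcb1.

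Markers of other cell types were set beside Ddc. Of 14 neuronal and neuroendocrine markers, 5 were tested, and Chga had at most 3 counts in any library. The summed level of the 14 was between 68.56 and 71.14 CPM in control, 159.3 and 164.9 with SAHA and 66.13 and 70.2 in Smarcb1-RE libraries. With Smarcb1, 3 of the 5 rose (60%, against 39.2% of all tested genes) and 1 fell (20%, against 38.6%). The largest change was that of Neurod1 (log2 fold change 2.87, SE 0.53, edgeR adjusted p = 0.000264). Syp and Tubb3 rose less (0.19 and 0.59), Snap25 fell (−0.33, edgeR adjusted p = 1.42e-05) and Elavl4 was not called. With SAHA 2 of the 5 rose and 2 fell (40% each, against 32.6% and 34.3%). Snap25 rose with SAHA (1.75, edgeR adjusted p = 5.37e-11), while Syp and Elavl4 fell (−0.54 and −1.19). Neurod1 also rose with SAHA (2.23, SE 0.56, edgeR adjusted p = 0.00353), and its direct difference of Smarcb1-RE from SAHA was 0.64 (SE 0.41, edgeR adjusted p = 0.172). All 4 tested of 8 B cell markers (Ms4a1, Pax5, Ighm and Ebf1) rose with Smarcb1, where 39.2% of all tested genes did. The other 4 were below the count filter. A gene can pass that filter by being high in 1 group alone, so this share may come partly from the filter. Pax5 and Ebf1 also rose with SAHA (log2 fold changes 2.90 and 0.20, edgeR adjusted p = 0.000804 and 0.00217). The summed level of the 8 was between 92.74 and 96.12 CPM in control, 101.3 and 111.9 with SAHA and 155.9 and 163.5 in Smarcb1-RE libraries. The part of these markers in the result was not tested. In bulk RNA, more cells that carry Ddc and more Ddc RNA per cell cannot be told apart. None of 10 myeloid markers was tested. Of 3 tested fibroblast, endothelial or epithelial markers 1 rose and 2 fell with Smarcb1, where 39.2% and 38.6% of all tested genes did.

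Genes that act with Fignl1 in homologous recombination moved in both directions. Of 26 tested, 5 rose and 17 fell with SAHA (65.38% lowered, against 34.3% of all tested genes, median −0.29), and 7 rose and 13 fell with Smarcb1 (50% lowered, against 38.6%, median −0.18). The balance with Smarcb1 turned with the scaling, to 11 raised and 9 lowered by library totals and 11 raised and 10 lowered relative to the median of chromosome 11. Xrcc2, a homologous recombination gene, had a mean of 31.6 CPM in control, 15.0 with SAHA and 21.0 in Smarcb1-RE, and fell by 1.07 and 0.59. Zswim7 fell by 1.03 with SAHA and was at −0.26 in Smarcb1-RE (edgeR adjusted p = 0.055).

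Within this list some genes took different directions. Sfr1 and Swi5, which form a complex in strand exchange, fell by 1.02 and 0.83 with Smarcb1, while Swi5 rose by 0.29 with SAHA. Rad51b rose by 0.69 with Smarcb1 and by 0.40 with SAHA, as Fignl1 did. In the direct comparison of Smarcb1-RE with SAHA, 14 of the 26 were higher and 5 lower in Smarcb1-RE, against 37.7% and 36.8% of all tested genes.

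Genes of the receptor signalling that Grb10 takes part in were 30 tested genes. With SAHA, 17 rose and 8 fell (56.67% raised, against 32.6% of all tested genes, median 0.23), and with Smarcb1 11 rose and 9 fell (36.67% raised, against 39.2%, median 0.07). By library totals, and likewise relative to the median of chromosome 11, 15 rose and 6 fell with Smarcb1. Grb14, its closest relative together with Grb7, fell in Smarcb1-RE from 187, 199 and 189 counts in control to 22, 30 and 27, a log2 fold change of −2.81 (SE 0.13, edgeR adjusted p = 8e-10), and rose by 0.60 with SAHA. Ret, a receptor tyrosine kinase, fell by 2.64 with Smarcb1 and rose by 1.74 with SAHA, at no more than 74 counts in any library. Irs2, an insulin receptor substrate, rose with Smarcb1 by 2.61 from 4, 4 and 2 counts. Gab2, a docking protein, rose by 1.61 with SAHA and 1.65 with Smarcb1, and Mtor by 0.92 and 0.43.

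As Grb10 is imprinted, 26 tested imprinted genes at other loci were examined. With SAHA 12 rose (46.15%, against 32.6% of all tested genes) and 6 fell (23.08%, against 34.3%), and with Smarcb1 8 rose (30.77%, against 39.2%) and 9 fell (34.62%, against 38.6%), with medians of 0.18 and 0.04. Usp29 and Peg3, which share an imprinted region, rose with both, Usp29 by 1.65 with SAHA and 2.26 with Smarcb1 and Peg3 by 1.80 and 1.23. Cdkn1c, an inhibitor of cyclin-dependent kinases, rose by 1.25 and 2.24. Mest rose by 1.25 with SAHA and fell by 1.60 with Smarcb1, at no more than 30 counts in any library. Tnfrsf23 rose by 3.98 with SAHA, and Slc22a18 fell by 3.12 with SAHA from 11, 7 and 3 counts. Scaled by library totals, 13 imprinted genes rose and 5 fell with Smarcb1, so the balance of that list rests on the scaling.

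Of 27 tested genes of actin nucleation and of partners of Cobl, 12 rose and 6 fell with SAHA (44.44% and 22.22%, against 32.6% and 34.3% of all tested genes), and 10 rose and 10 fell with Smarcb1 (37.04% each way, close to the 39.2% and 38.6% of all tested genes). Cobll1, the relative of Cobl, had 72, 89 and 102 counts in control, 217, 273 and 230 with SAHA and 30, 25 and 29 in Smarcb1-RE libraries. It rose by 1.51 with SAHA (SE 0.14, edgeR adjusted p = 1.08e-06) and fell by 1.59 with Smarcb1 (SE 0.18, edgeR adjusted p = 3.15e-06). Pacsin1, a membrane-shaping protein that binds Cobl, rose by 1.02 and fell by 1.51. Its relative Pacsin3 rose in both comparisons, by 1.27 and 1.19. Wasf1, a WAVE family activator of the Arp2/3 complex, rose by 2.27 with SAHA, and Tmsb4x, an actin-sequestering protein, by 1.56.

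**Figure D5:**
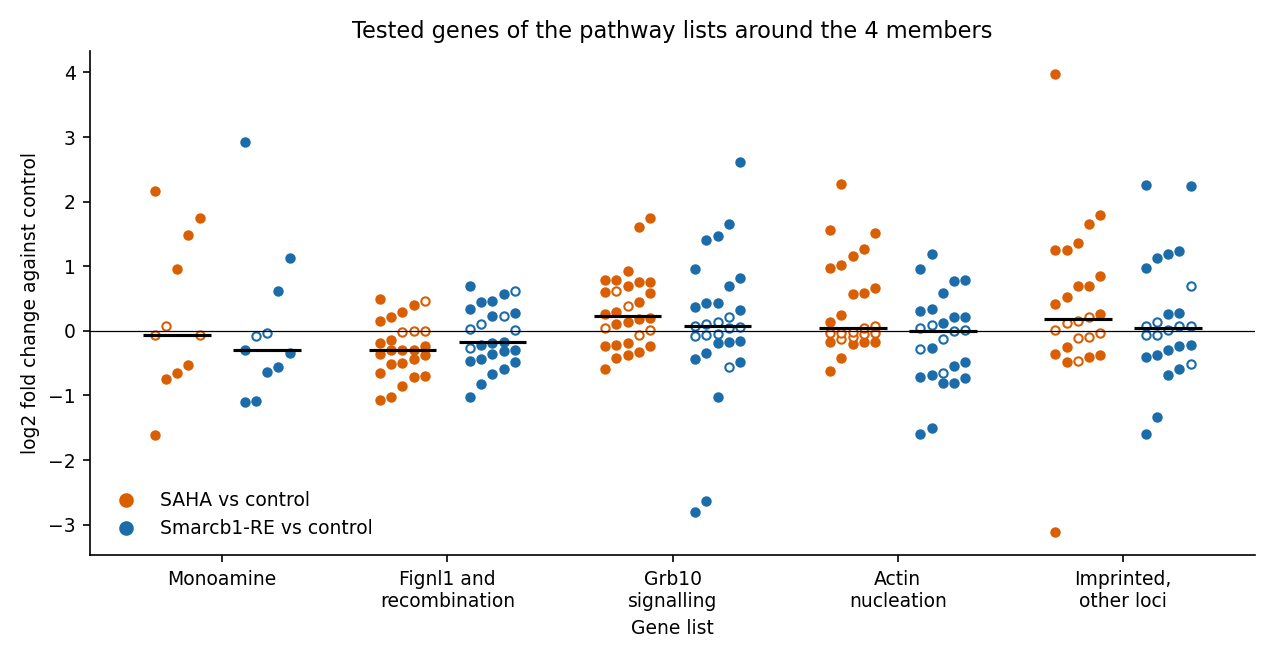
log2 fold change against control of each tested gene (circles, open where the adjusted p is 0.05 or more) of the lists around the 4 members, with the list median as a line, for SAHA and Smarcb1-RE. In the recombination list the medians are −0.29 and −0.18, and in the other lists they lie between −0.29 and 0.23.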

How the data were processed

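RNA-seq was measured in 9 libraries of T15 cells. Estimated counts for each Ensembl gene were deposited by the authors in 1 table, and the submitters' processing notes name FastQC 0.11.8, MultiQC 1.7, Salmon 0.14.1, DESeq2 1.22.2 and GRCm38. Of nonzero values, 52.35% were not whole, so counts were rounded. Gene names and positions came from GENCODE M21, which held 35099 of 35288 listed genes. Genes passing filterByExpr (minimum count 10) were normalized by TMM and fitted for all 9 libraries together in edgeR 4.0.16 (R 4.3.3), with the quasi-likelihood test and Benjamini-Hochberg adjustment over 13697 genes at 0.05. The common biological coefficient of variation was 5.243%. Cobl, below the filter, was compared by its summed counts with exact intervals. The fit was tested on simulated data. Labels call the libraries biological replicates without saying how cultures were separated, so p-values may measure technical spread alone. The members and gene lists were chosen with earlier results of these data known. Genes named were the members, Smarcb1, tested genes within 1 Mb of the Ddc start, the called monoamine genes, the 3 largest called changes of each other list and comparison, the 5 genes most like Ddc and examples among the 20 most raised genes. Genes named beyond these (hydroxylases, transporters, markers, Swi5 with SAHA, and the neighbours given) were list members or chosen after their values were seen. Some genes counted in the lists are not reported here by name. Alternatives were DESeq2 1.42.0, other scalings, filters, thresholds and windows, a replicate block, and leaving out each library.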

Additional observations from a re-analysis of the deposited data

How the results depend on the processing

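Over 385 combinations of a result and an alternative other than leaving out a library, 351 kept their direction and their side of the threshold, or stayed within 1.5 times the count. Scaling by library totals, which shifts the median of all genes in Smarcb1-RE by 0.16, turned the Smarcb1-RE against SAHA difference to 0.04 for Fignl1 and 0.07 for Grb10, and moved the list counts with Smarcb1 to 13 raised and 5 lowered imprinted genes and 11 raised (9 lowered) recombination genes. Relative to the median of chromosome 11 the same values were 0.07 for Fignl1, 0.10 for Grb10 and 11 raised (10 lowered) recombination genes. For Fignl1 that difference lost its call with at least 10 counts in every library (−0.10) and at an adjusted p under 0.01 (−0.12), and the former filter left 5 raised of 8 neighbours of the 4 of the 20 most raised genes that remained, as genes scarce in control are left out by construction. Without a filter 1 gene near Ddc, Cobl, fell with Smarcb1. Within 5 Mb, 4 genes fell with SAHA and 2 with Smarcb1. With an absolute log2 fold change of at least 1 required, with SAHA 0 genes near Ddc and 1 monoamine gene were lowered, 6 imprinted genes were raised and 1 lowered, 2 signalling genes raised and 0 lowered, 0 recombination genes raised and 2 lowered, and 6 actin genes raised and 0 lowered. With Smarcb1 under the same rule, 2 monoamine genes were lowered, 5 imprinted genes raised and 2 lowered, 4 signalling genes raised and 3 lowered, 0 recombination genes raised and 1 lowered, and 1 actin gene raised and 2 lowered. The cause of the changes with scaling was not tested. Leaving out 1 library at a time, Grb10 ranged from 0.47 to 1.33 with SAHA, from 0.37 to 1.23 with Smarcb1 and from −0.42 to 0.16 between them, with 0.01 without SAHA replicate 2 and 0.16 without Smarcb1-RE replicate 2. Fignl1 ranged from −0.14 to −0.11 between Smarcb1-RE and SAHA, Cobl from −2.61 to −1.59, and the genes near Ddc raised with SAHA from 3 to 5, the 5 without control replicate 3. Replicate numbers did not pair the libraries (correlations of same-numbered deviations −0.0717 to 0.0366). A replicate block changed no call of the members, left 3 genes near Ddc raised with SAHA, and gave 5335 raised and 5253 lowered genes with Smarcb1. Depth limits Grb10, at 33 counts or fewer, and Cobl, at 9 or fewer.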

Other observations

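The tested genes further from Ddc did not form a raised block. Within 5 Mb of the Ddc start 12 genes besides Ddc were tested. Of these, 5 rose and 2 fell with Smarcb1 (41.67% raised, where 39.2% of all tested genes rose and 38.6% fell). With SAHA 3 rose and 4 fell, where 32.6% of all tested genes rose and 34.3% fell. The 12 include the 6 tested genes within 1 Mb, which held 4 of the genes raised with Smarcb1 and all 3 raised with SAHA. Beyond 1 Mb the only tested gene raised with Smarcb1 was Vstm2a, 4360 kb from the Ddc start. Vstm2a rose by a log2 fold change of 1.74 (edgeR adjusted p = 4.51e-09) and fell by 0.87 with SAHA. Hus1, a member of the 9-1-1 checkpoint clamp 2887 kb away, fell by 0.28 with Smarcb1 and by 0.50 with SAHA. Akt2-ps, a pseudogene, fell by 0.91 and 0.75.

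The genes most like Ddc depend on the measure of likeness. By Pearson correlation over the 9 libraries, which disregards the size of the change, they were Arrdc4, Grk5, Crb1, Ank and Ppp1r16b (r from 0.9978 to 0.9992), and 0 of these 5 were among the 5 nearest by Euclidean distance. The 9 points fall into the Smarcb1-RE libraries and the rest, and share these libraries and their depth.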
